A study of Drosophila melanogaster with 5 samples.

Results

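Long non-coding RNAs (lncRNAs) are transcripts that are not translated into protein. In flies, some act as scaffolds for protein complexes on chromatin or in the nucleus, and others are made from the introns or the flanks of coding genes. The best known are roX1 and roX2, which guide the MSL complex to the male X chromosome for dosage compensation, and Hsromega, whose heat-inducible transcripts organise the omega speckles, nuclear bodies that hold hnRNP proteins. Described here are the abundant lncRNAs of Drosophila melanogaster third-instar larvae, with and without the gene CG1603. Members were chosen by level: a FlyBase symbol that starts with "lncRNA:" and at least 10 CPM (counts per 1e6 counted reads) in 2 or more of the 5 libraries. This rule kept 51 of 1892 lncRNA genes among the 17735 genes counted.

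The tested larvae were homozygous for CG1603attP, in which CRISPR/Cas9 had replaced most of the gene with an attP site and a 3P3:dsRed reporter in a y1w1118 background. They came from parents that carried the deletion over the balancer CyO GFP, and such homozygotes die as second- or third-instar larvae. Poly(A) RNA of 3 CG1603attP and 2 y1w1118 biological replicates was sequenced, each from third-instar larvae, and the deletion is 1 line. The study does not state whether larvae were pooled. The sex of the larvae was not given in the labels. In such bulk samples, fewer cells of a type and less RNA per cell cannot be told apart.

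Reads counted on genes, without ribosomal RNA genes, were between 9310913 and 14514277 per CG1603attP library and were 10954811 and 9044930 in the y1w1118 libraries. The targeted gene CG1603 had 0, 0 and 3 reads in CG1603attP libraries, against 124 and 102 reads in y1w1118 libraries. CG1603attP replicate 1 and y1w1118 replicate 2 stood apart from the others of their genotype in cuticle genes. TwdlM, for example, had 872, 1.74 and 9.84 CPM in CG1603attP replicates 1 to 3, against 1.67 and 591 CPM in y1w1118 replicates 1 and 2. Of all 11045 genes tested, 1618 were higher and 1735 lower in CG1603attP larvae. All levels below are CPM scaled by the TMM method unless called unscaled, and all calls are at an adjusted p below 0.05 in edgeR's quasi-likelihood test, adjusted over all genes tested.

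The abundant lncRNAs together held 1.28%, 1.56% and 1.18% of reads in CG1603attP libraries, against 0.584% and 0.656% in y1w1118 libraries, and the groups did not overlap. Hsromega and CR42862 made up most of this, with 72.8% to 77.1% of the members' reads in CG1603attP libraries and 63.1% to 67.5% in y1w1118 libraries. Without these 2 genes, the share was 0.293%, 0.425% and 0.276% in CG1603attP libraries, against 0.215% and 0.213% in y1w1118 libraries. With CR44138 left out as well, a member that reached the level only in CG1603attP, it was 0.204%, 0.314% and 0.174% in CG1603attP libraries, against 0.215% and 0.212% in y1w1118 libraries, and the groups overlapped.

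**Figure D1:**
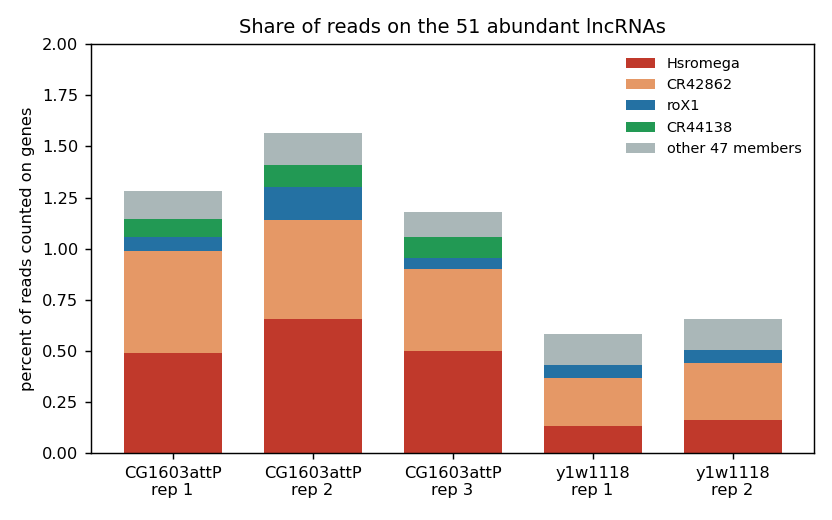
Percent of reads counted on genes (vertical axis) that fell on the 51 abundant lncRNAs in each CG1603attP and y1w1118 library, with Hsromega, CR42862, roX1 and CR44138 as separate parts of each bar. The 3 CG1603attP bars reach 1.18% to 1.56% and the y1w1118 bars 0.584% and 0.656%.

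The threshold was passed in different ways. In 28 members the level was reached in 2 or more libraries of both genotypes, in 15 only in CG1603attP, in 7 only in y1w1118, and in 1 in a single library of each. The 23 that are not in the first group were kept partly because 1 genotype was high, so their differences are a description. Just inside the threshold, the second-highest unscaled level was 10.7 CPM in CR45473, CR45018 and CR43654. Just outside it, this level was 9.98 CPM in CR44399, 9.95 CPM in CR43900 and 9.62 CPM in CR32027. CR44399 had unscaled levels of 9.09, 9.98 and 11.8 CPM in CG1603attP libraries, against 0.183 and 0.221 CPM in y1w1118 libraries.

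The members lay on chromosome arms 3R (18), X (12), 3L (9), 2R (6) and 2L (6), and 0 of 51 started in pericentric heterochromatin. Overlapping exons of all transcripts of a gene were merged, and exon numbers given here count the merged exons. Counted this way, 30 of the members had a single exon. Their exons summed to between 214 bp in CR40469 and 21710 bp in Hsromega, with a median of 1742 bp. The spans of 28 members overlapped a protein-coding gene, and 10 shared exonic bases with one. Libraries were not strand-specific, so reads of a member and of the gene around it on the other strand cannot be told apart.

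Of the 51 members, 12 were higher in CG1603attP larvae, 7 were lower and 32 were not called. Higher calls made up 23.5% of members, beside 14.6% of all genes tested. Lower calls made up 13.7% of members, beside 15.7% of all genes. All genes tested include genes below the level that members had to reach. A fit limited to the 7574 genes of any kind at 10 CPM in 2 libraries called 1691 higher and 1694 lower. In that fit 13 members were higher and 7 lower, so the comparison with all genes depends on level. Of the 12 higher members, 7 reached the level only in CG1603attP, and of the 7 lower, 4 only in y1w1118. The shares of 23.5% and 13.7% are therefore set in part by the rule that chose the members. Among the 28 members that reached the level in both genotypes, 5 were higher and 3 lower. The median log2 fold change was -0.04 over the members and -0.19 over these 28, against -0.01 over all genes. All CG1603attP libraries lay above all y1w1118 libraries in 17 members (33.3%, beside 28.9% of all genes) and below them in 15 (29.4%, beside 30.8%). Scaling by library size alone moved the median of all genes to 0.13 and gave 2079 higher and 1424 lower genes, with 14 members higher and 6 lower. Without either y1w1118 library, edgeR called 6 or 7 members higher and 3 or 4 lower, and each such fit assumes that the single y1w1118 library left varies as the CG1603attP libraries do.

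**Figure D2:**
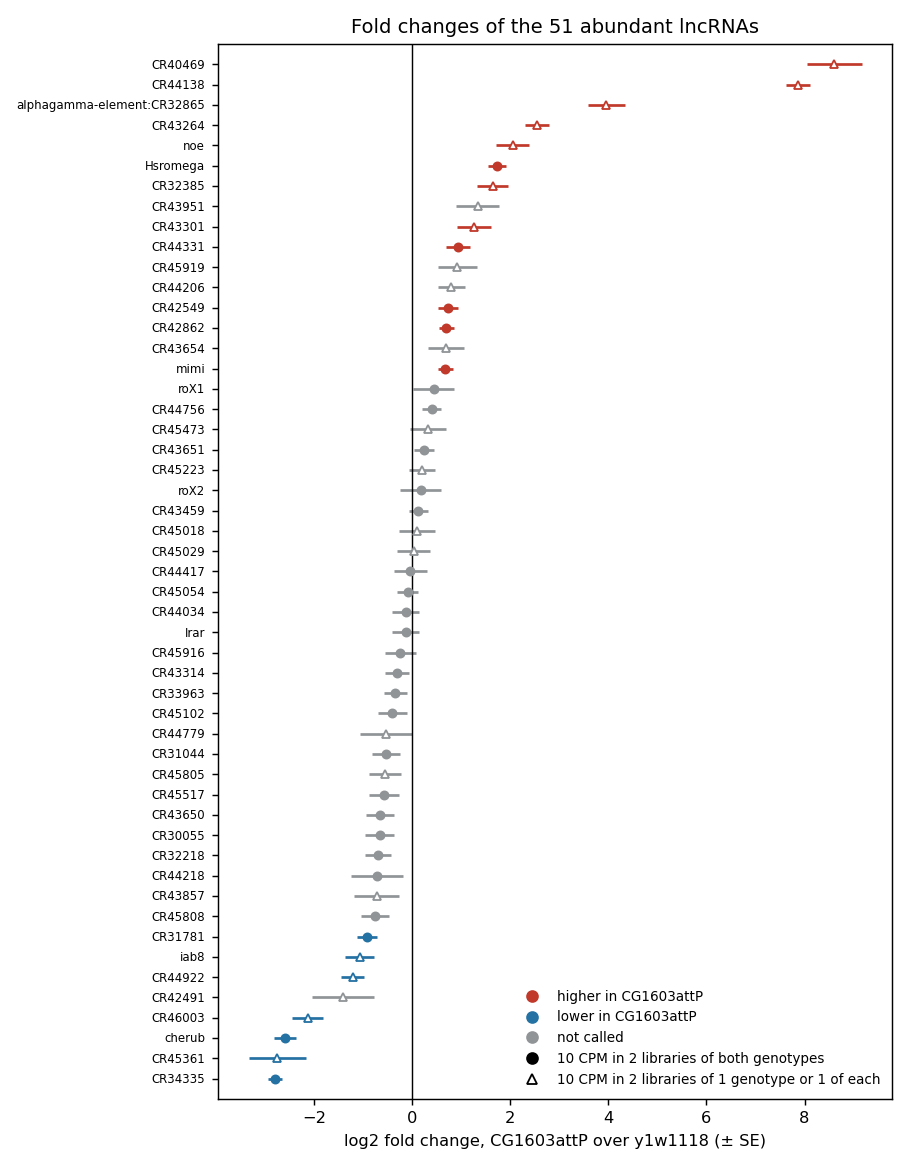
Log2 fold change of each of the 51 abundant lncRNAs, CG1603attP over y1w1118, with standard error bars (horizontal axis); circles are members at 10 CPM in 2 libraries of both genotypes and triangles all others. Calls run from CR34335 at -2.79 to CR40469 at 8.61, with 32 members not called.

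The dosage compensation RNAs roX1 and roX2 varied more among mutant libraries than between genotypes. roX1 lies on X (dm6, chrX:3857230-3862697, minus strand, 1 merged exon). It had 674, 1495 and 541 CPM in CG1603attP replicates 1 to 3, against 702 and 630 CPM in y1w1118 libraries. CG1603attP replicate 2 was above all others and the remaining CG1603attP libraries lay around the y1w1118 values. roX2, also on X (chrX:11579065-11580432, plus strand, 1 merged exon), had 70.1, 186 and 83.7 CPM in CG1603attP libraries, against 87.7 and 113 CPM in y1w1118 libraries. Again CG1603attP replicate 2 was highest and the groups overlapped.

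The log2 fold change was 0.44 ± 0.42 (SE) for roX1 (edgeR, adjusted p = 0.484) and 0.18 ± 0.42 for roX2 (edgeR, adjusted p = 0.788). Neither difference exceeded the spread between replicates. Without CG1603attP replicate 2 both values turned negative, at -0.11 for roX1 and -0.36 for roX2, still without a call. The ratio of roX1 to roX2 reads was 9.62, 8.02 and 6.46 in CG1603attP libraries, against 8.01 and 5.58 in y1w1118 libraries.

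Other measures tied to sex and the X were read in the same libraries. The summed level of 10 Y-linked genes was 4.20, 2.40 and 2.75 CPM in CG1603attP replicates 1 to 3, against 1.18 and 1.39 CPM in y1w1118 libraries, and 3 of these genes had no more than 3 reads in any library. Sxl, the switch gene of female development, had 363, 289 and 264 CPM in CG1603attP libraries, against 237 and 246 CPM in y1w1118 libraries. Another sex determination gene, dsx, had 0.534, 1.23 and 0 CPM in CG1603attP libraries, against 3.04 and 2.55 CPM in y1w1118 libraries. Of 4 sex determination genes, edgeR and DESeq2 called 0, with 0 at an unadjusted p below 0.05. X-linked genes took 14.8%, 14.1% and 14.7% of reads in CG1603attP libraries, against 13.6% and 13.1% in y1w1118 libraries. The part of the sex of the larvae in the roX levels was not tested.

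Genes for the protein side of dosage compensation were not called. Of 8 such genes, edgeR called 0 higher and 0 lower, with 1 at an unadjusted p below 0.05, and DESeq2 also called 0. Their median log2 fold change was -0.08, and single genes ran from -0.36 in msl-3 to 0.38 in Clamp. Clamp had 85.9, 89.1 and 73.5 CPM in CG1603attP libraries, against 61.5 and 66.1 CPM in y1w1118 libraries. Its groups did not overlap (log2 0.38 ± 0.15, edgeR, adjusted p = 0.0991). The most abundant of these genes, the RNA-binding Unr, had 316, 366 and 294 CPM in CG1603attP libraries, against 348 and 371 CPM in y1w1118 libraries. msl-2, the male-specific subunit, had 25.6, 30.4 and 25.7 CPM in CG1603attP libraries, against 33.5 and 25.7 CPM in y1w1118 libraries. Over 1744 X-linked genes tested the median log2 fold change was 0.13, and over 9108 autosomal genes it was -0.03.

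**Figure D3:**
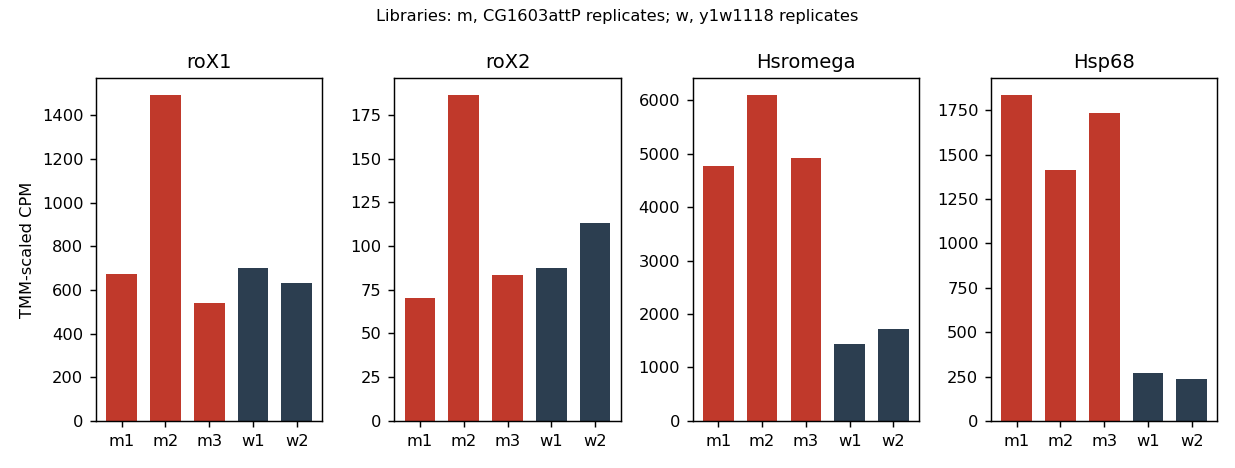
TMM-scaled CPM (vertical axes, each starting at 0) of roX1, roX2, Hsromega and Hsp68 in CG1603attP replicates 1 to 3 (m1 to m3) and y1w1118 replicates 1 and 2 (w1, w2). roX1 and roX2 are high in m2 alone, at 1495 and 186 CPM, while Hsromega and Hsp68 are above y1w1118 in every CG1603attP library.

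Hsromega was higher in the mutant together with most heat shock genes. It lies on 3R (chr3R:21296127-21317836, plus strand, 1 merged exon) and had 4763, 6103 and 4913 CPM in CG1603attP libraries, against 1433 and 1725 CPM in y1w1118 libraries. Every CG1603attP library was above both y1w1118 libraries. The gene was 3.33-fold higher (log2 1.74 ± 0.19, edgeR, adjusted p = 0.0013), the call held in all 15 alternatives, and its log2 value ranged from 1.60 to 1.86 with single libraries left out. Its neighbour aus, which lies 464 bp away on the other strand, rose by 0.72 on the log2 scale (edgeR, adjusted p = 0.00683).

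Of 17 heat shock genes, 15 were tested and 11 were higher in CG1603attP larvae, with 0 lower and a median log2 fold change of 1.66. Hsp68, an inducible chaperone, had 1837, 1415 and 1733 CPM in CG1603attP libraries, against 268 and 237 CPM in y1w1118 libraries. Small heat shock genes were among them, with Hsp23 at 5.70-fold and Hsp67Bc at 6.07-fold higher. Hsf, the transcription factor of the heat shock response, was at 55.8, 74.0 and 49.9 CPM in CG1603attP libraries, against 60.9 and 50.5 CPM in y1w1118 libraries, and was not called. Reads that map equally well to several of the near-identical Hsp70 copies were left out as multimapping, so the levels of these copies are incomplete.

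RNAs of genes for omega speckle proteins went the other way or were not called. Of 7 such genes matched by symbol, 4 were lower and 0 higher, with a median log2 fold change of -0.51. The hnRNP gene sqd had 598, 691 and 512 CPM in CG1603attP libraries, against 1421 and 1488 CPM in y1w1118 libraries (log2 -1.28 ± 0.15, edgeR, adjusted p = 0.0017). Hrb87F, another hnRNP gene, had 60.5, 84.4 and 64.0 CPM in CG1603attP libraries, against 151 and 134 CPM in y1w1118 libraries. Without a single y1w1118 library edgeR called 1 or 2 of these genes lower, and DESeq2 called 5 lower.

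A second heat shock locus transcript, alphagamma-element:CR32865, was low in y1w1118 larvae and reached the level only in CG1603attP. It comes from the Hsp70 cluster on 3R (chr3R:12475336-12478267, minus strand, 2 exons), whose repeats are similar to each other. It had 14.1, 16.4 and 17.8 CPM in CG1603attP libraries, against 0.785 and 1.28 CPM in y1w1118 libraries. The groups were far apart, with 605 reads in all in CG1603attP and 19 in y1w1118 larvae. The ratio of summed levels was 15.7, with an exact binomial 95% interval of 9.96 to 26.2 that covers counting error only (log2 3.96 ± 0.37, edgeR, adjusted p = 0.000891). Its strand-aware counts summed to 1.23 times the unstranded count, so part of its reads overlap genes on the other strand. With the sum of the strand-aware counts in place of the unstranded count, its log2 fold change was 3.02.

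CR42862 was the most abundant member of y1w1118 larvae. It lies on 3L (chr3L:224106-230964, plus strand, 3 exons) and had 4799, 4498 and 3972 CPM in CG1603attP libraries, against 2525 and 2919 CPM in y1w1118 libraries. All CG1603attP libraries were above the y1w1118 libraries, by 1.62-fold (log2 0.70 ± 0.16, edgeR, adjusted p = 0.017). With either y1w1118 library left out, this call was lost, at adjusted p values of 0.132 and 0.0769. It shares 246 bp of exon with CG33229 on the same strand, which was also higher.

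CR44138 and CR40469 showed the largest differences. CR44138, a 493 bp single exon on 3R (chr3R:13376903-13377395, plus strand), had 866, 1031 and 1006 CPM in CG1603attP libraries, against 3.33 and 4.98 CPM in y1w1118 libraries. Both genotypes were tight and the groups were 234-fold apart (log2 7.87 ± 0.25, edgeR, adjusted p = 8.24e-05). It lies in an intron of CG9813 on the opposite strand, whose own exons had 74.2, 78.8 and 70.5 CPM in CG1603attP libraries, against 10.7 and 10.9 CPM in y1w1118 libraries. As the libraries carry no strand, intronic reads of CG9813 cannot be told apart from CR44138.

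CR40469, 214 bp near the tip of X (chrX:122493-122706, plus strand), had 113, 64.2 and 146 CPM in CG1603attP libraries, against 0.294 and 0.232 CPM in y1w1118 libraries. The y1w1118 values rest on 5 reads in all, beside 3952 reads in CG1603attP larvae, and CR40469 reached the level only in CG1603attP. The ratio of summed levels was 389, with an exact binomial 95% interval of 167 to 1200 for counting error (edgeR, adjusted p = 0.000338). CG17636, 1664 bp away on the other strand, had 72.1, 65.8 and 67.7 CPM in CG1603attP libraries, against 21.0 and 19.4 CPM in y1w1118 libraries.

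Other members were higher by smaller amounts. CR43264 had 56.8, 50.0 and 46.7 CPM in CG1603attP libraries, against 7.16 and 10.3 CPM in y1w1118 libraries, a 5.86-fold difference (edgeR, adjusted p = 0.000986). It lies in CG15765 on the opposite strand. The transcript noe had 45.5, 29.0 and 26.6 CPM in CG1603attP libraries, against 9.42 and 6.84 CPM in y1w1118 libraries, while blot, the gene around it on the same strand, was not called (log2 -0.17). The transcript mimi had 79.5, 74.7 and 72.7 CPM in CG1603attP libraries, against 43.4 and 51.1 CPM in y1w1118 libraries. Groups did not overlap in any of these, but the mimi call (edgeR, adjusted p = 0.0164) was lost without either y1w1118 library. The remaining higher members were CR32385 at 3.12-fold, CR43301 at 2.40-fold, CR44331 at 1.92-fold and CR42549 at 1.66-fold. Of the members in this paragraph, CR43264, noe, CR32385 and CR43301 reached the level only in CG1603attP. The CR43301, CR44331 and CR42549 calls were lost without either y1w1118 library and without CG1603attP replicate 2, those of CR43301 and CR42549 also without CG1603attP replicate 1, and that of CR32385 without y1w1118 replicate 2.

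**Figure D4:**
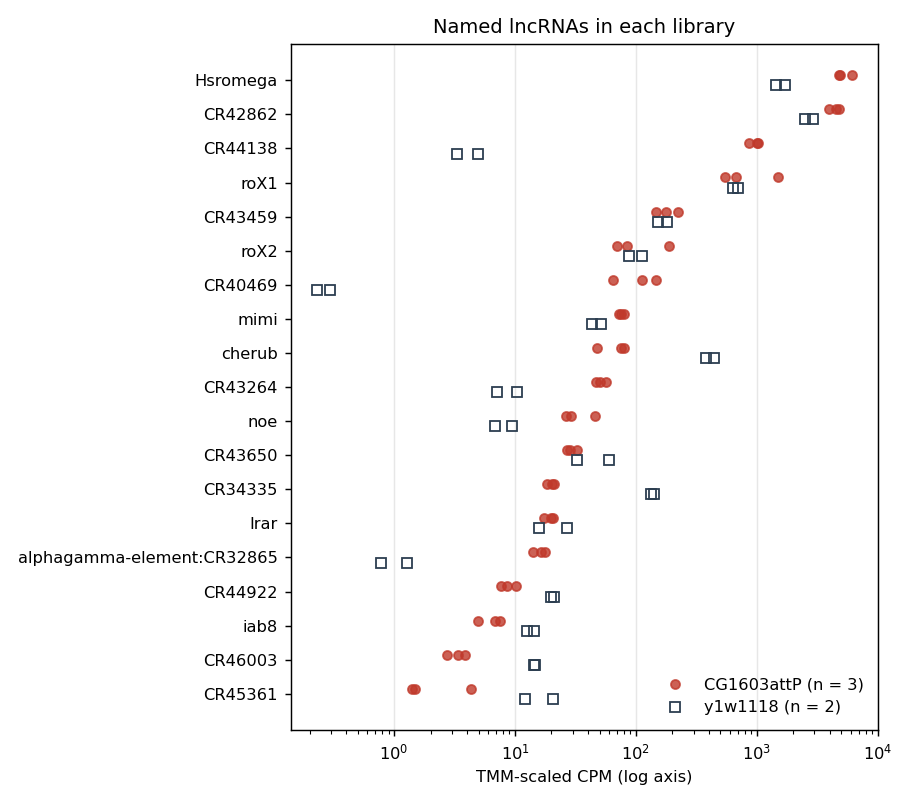
TMM-scaled CPM (horizontal log axis) of 19 named abundant lncRNAs in each of the 3 CG1603attP libraries (filled circles, upper of each pair) and 2 y1w1118 libraries (open squares). Genotypes are widest apart in CR40469 and CR44138, and overlap in roX1, roX2, CR43459, CR43650 and Irar.

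The lower members included cherub, a lncRNA of larval brain neuroblasts that is known from work on brain tumours. It lies on 3R (chr3R:11247631-11256123, minus strand, 2 exons) and had 74.8, 80.0 and 48.0 CPM in CG1603attP libraries, against 441 and 379 CPM in y1w1118 libraries. The groups were far apart, and cherub was 6.06-fold lower in CG1603attP (log2 -2.60 ± 0.23, edgeR, adjusted p = 0.000662). CG5214, 769 bp away on the other strand, had 129, 126 and 209 CPM in CG1603attP libraries, against 373 and 343 CPM in y1w1118 libraries. Of 10 neuronal genes, 3 were higher and 0 lower, and their summed level was 1515 to 1872 CPM in CG1603attP libraries and 1241 to 1272 CPM in y1w1118 libraries. All 8 muscle genes were lower, with a summed level of 16530 to 22320 CPM in CG1603attP libraries and 69800 to 75820 CPM in y1w1118 libraries. The part of tissue composition in the lncRNA differences was not tested.

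CR34335 had the lowest fold change of all members. This 361 bp exon on X (chrX:3545750-3546110, minus strand) had 18.4, 21.1 and 20.1 CPM in CG1603attP libraries, against 134 and 141 CPM in y1w1118 libraries. The genotypes were 6.91-fold apart (log2 -2.79 ± 0.14, edgeR, adjusted p = 0.00019). DIP-alpha, in which it lies on the same strand, moved the other way, with 19.1, 19.3 and 26.7 CPM in CG1603attP libraries, against 11.1 and 11.1 CPM in y1w1118 libraries.

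iab8 comes from the bithorax complex, where it represses abd-A and carries a microRNA. It had 7.47, 6.90 and 4.97 CPM in CG1603attP libraries, against 12.7 and 14.5 CPM in y1w1118 libraries (log2 -1.07 ± 0.30, edgeR, adjusted p = 0.0383). The groups did not overlap, but the call was lost with scaling by library size alone and without any 1 of 4 libraries, at adjusted p values of 0.0533 to 0.254. Its exons overlap MSAmiP by 1733 bp. CR45361, CR46003 and CR44922 were also lower, by 6.73-fold, 4.36-fold and 2.31-fold, and like iab8 reached the level only in y1w1118. Without CG1603attP replicate 2 the log2 fold change of CR45361 was -3.48, beside -2.75 with all libraries. Without y1w1118 replicate 2 the CR45361 call was lost (adjusted p = 0.118), and CR44922 was lost without either y1w1118 library. CR31781 was 1.88-fold lower, and its call was also lost without either y1w1118 library.

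Irar and CR43459 were not called. Irar, in the insulin receptor gene InR on the opposite strand, had 17.3, 20.03 and 20.7 CPM in CG1603attP libraries, against 26.8 and 15.6 CPM in y1w1118 libraries, while InR rose by 1.07 on the log2 scale (edgeR, adjusted p = 0.00173). CR43459 had 177, 224 and 147 CPM in CG1603attP libraries, against 180 and 154 CPM in y1w1118 libraries. The groups overlapped in both. Fmr1, 64 bp from CR43459 on the other strand, was lower by 1.13 on the log2 scale.

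On a per-length scale (CPM per kb of exon), the order of members differed between genotypes. In CG1603attP larvae CR44138 was first with a mean level of 1963 CPM per kb, followed by CR42862 with 806, CR40469 with 503, Hsromega with 242, roX1 with 165 and CR43264 with 161 CPM per kb. In y1w1118 larvae CR42862 was first with 496 CPM per kb, followed by CR34335 with 381, roX1 with 122, roX2 with 73.3 and Hsromega with 72.7 CPM per kb. The ranges of roX2 and Hsromega over libraries overlapped there, as did those of Hsromega and roX1, and of roX1 and CR43264, in CG1603attP larvae. Differences between members within the same libraries were not tested. Hsromega is made as several transcripts of unequal length, so its level per length rests on the merged exon.

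Members were then set beside their nearest protein-coding gene, which was tested for 41 of them. Of 15 called members in this group, the neighbour was called in the same direction in 9, not called in 5 and called in the opposite direction in 1, which was CR34335 in DIP-alpha. Of 26 members not called, the neighbour was called in 15. Over all genes tested, 30.4% were called in either direction. Across these 41 pairs, Pearson's r of the log2 fold changes was 0.5 and Spearman's rho 0.386. This is a description over genes in the same 5 libraries, in which some pairs share a span and therefore reads, and pairs are not independent. Several of the called members reached the level in only 1 genotype, so their side of the comparison is set in part by the rule. Among them are CR44138 and CR40469, whose log2 fold changes of 7.87 and 8.61 are the largest in the correlation.

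**Figure D5:**
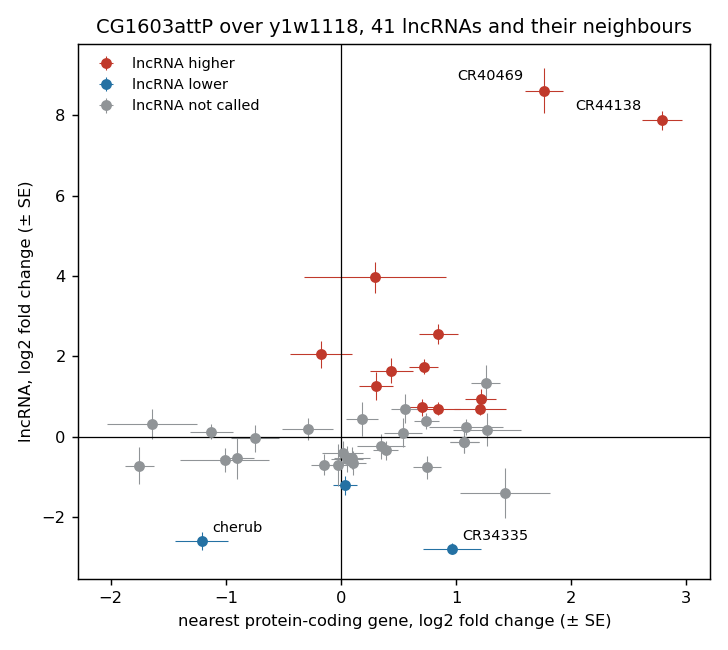
Log2 fold change of 41 abundant lncRNAs (vertical axis) against that of their nearest protein-coding gene (horizontal axis), CG1603attP over y1w1118, with standard errors on both axes. CR44138 and CR40469 and their neighbours are all higher, cherub and CG5214 both lower, and CR34335 is lower while DIP-alpha is higher.

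The lists of promoters with an Mzfp1 peak, from chromatin immunoprecipitation in embryos in the study, held 3 members, all in euchromatin. These lists are not from larvae. Hsromega was listed with the Mzfp1 motif, and CR42862 and CR43650 without it. Of these, Hsromega and CR42862 were higher as given above. CR43650 had 26.8, 28.5 and 32.8 CPM in CG1603attP libraries, against 32.7 and 59.8 CPM in y1w1118 libraries. These groups overlapped by a small margin and it was not called (log2 -0.66 ± 0.28, edgeR, adjusted p = 0.129).

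Other lists that could bear on the source of the RNA were counted in the same fit. Of 5 snoRNP protein genes, 4 were lower and 0 higher. CR42491, a member that hosts a snoRNA in RpL22, had 9.54, 3.63 and 1.90 CPM in CG1603attP libraries, against 13.3 and 13.6 CPM in y1w1118 libraries, and was not called (edgeR, adjusted p = 0.141). Of 7 midgut genes, 5 were higher and 1 lower, and of 4 haemocyte genes 1 was lower. The summed level of the haemocyte genes was 344 to 370 CPM in CG1603attP libraries and 733 to 742 CPM in y1w1118 libraries. Of 6 imaginal disc genes, 1 was higher and 1 lower, and of 4 fat body genes tested 1 was lower. This was apolpp, with 1800, 3658 and 2833 CPM in CG1603attP libraries, against 12841 and 14504 CPM in y1w1118 libraries. The other fat body genes were below 10 CPM in every library. Of 20 testis genes, 10 had no more than 3 reads in any library, and of the 6 tested edgeR called 0, with 1 at an unadjusted p below 0.05, where DESeq2 called 1. Of 6 germline genes, AGO3 was higher at 2.30-fold and the other 5 were not called, with fold changes of 0.124 (vas) to 0.338 (bam) and a median log2 fold change of -2.24 over the list. Of 7 salivary gland genes and of 10 Y-linked genes, 1 each was tested and edgeR and DESeq2 called 0, with 0 at an unadjusted p below 0.05.

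Below the level threshold, 320 further lncRNAs were tested, of which 14 (4.38%) were higher and 4 (1.25%) lower, beside 14.6% and 15.7% of all genes tested. Calls are harder to reach at low counts, so these shares are not a measure of how strongly such lncRNAs differ. Of all 1892 lncRNA genes, 594 had 0 reads in all 5 libraries and 359 had reads in each.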

How the data were processed

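Larval poly(A) RNA of 3 CG1603attP and 2 y1w1118 biological replicates was sequenced from non-strand-specific libraries. The authors trimmed reads with cutadapt, mapped them on the dm6 genome in STAR, and its read counts per gene were deposited (unstranded and per strand, no versions given in the sources used here). The unstranded counts were used, without 138 ribosomal RNA genes and without multimapping, ambiguous, unannotated and unmapped reads. Symbols came from a FlyBase name table (138 identifiers had none) and positions from the Ensembl release 115 annotation.

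Genes were kept by filterByExpr (count 10, total 15), scaled by TMM and tested in edgeR 4.0.16 (R 4.3.3) with estimateDisp, glmQLFit and glmQLFTest, with Benjamini-Hochberg adjustment over all 11045 genes. The script was tested on simulated data. Replicate libraries differed beyond sampling noise. One read was worth 0.0667 to 0.116 CPM. p-values measure the spread between 3 and 2 samples.

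Named were roX1, roX2 and Hsromega, the 10 members of highest mean level, the 5 highest and 5 lowest called members without overlap between groups, members in Mzfp1 lists, and members with a name. CR32385, CR43301, CR44331, CR42549, CR31781, CR42491, TwdlM and the genes beside members were named after their values were seen. Members and gene lists were chosen with earlier results of these data known. Alternatives were DESeq2 1.42.0, other scalings, filters, count columns, a replicate block and single libraries left out. Planned promoter searches were not run, and genes absent by symbol from the files were not analysed here.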

Additional observations from a re-analysis of the deposited data

How the results depend on the processing

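Of the 19 named lncRNAs, 10 kept their direction and their side of the threshold under all 15 alternatives. With single libraries left out, members called higher were 6 to 13 and lower 3 to 7, roX1 ranged from -0.11 to 0.73 and roX2 from -0.36 to 0.44 on the log2 scale (-0.0026 without y1w1118 replicate 1). CR43459 ranged from -0.023 to 0.29 and Irar from -0.48 to 0.30, and Irar was 0.015 when scaled by library size only. Over all genes, 614 and 596 were higher and 796 and 836 lower without y1w1118 replicate 1 and 2, against 1618 and 1735. The number of members was 107 at 5 CPM and 28 at 20 CPM. With single libraries left out, called counts were 0 to 1 higher for dosage compensation, 0 to 1 higher and 0 to 1 lower for germline, 1 to 2 lower for haemocytes, 1 higher and 0 to 1 lower for imaginal discs, 1 to 5 higher for neurons, 1 to 5 lower for omega speckle proteins, 1 to 4 lower for snoRNP proteins and 0 to 1 higher for testis genes. Scaling by library size only gave 1 higher for dosage compensation, 2 for imaginal discs and 6 for neurons, and 2 lower for snoRNP proteins. DESeq2 gave 3 lower for haemocytes and 1 higher for testis genes, and a 10 CPM filter gave 2 higher for imaginal discs. The causes were not tested.

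The labels give both genotypes replicate numbers 1 and 2, and the replicate block gave 11 members higher and 5 lower, with 1393 and 1574 over all genes and 2 lower haemocyte genes. Under it iab8 (adjusted p = 0.0838), CR31781, CR43301 and CR44331 were not called and CR43951 was called higher. Deviations of same-numbered libraries correlated at -0.47 and -0.24. With only 2 y1w1118 libraries, their deviations from the mean mirror each other, so these values are not independent and cannot decide the pairing. The numbers were not taken to pair samples. Depth limits the precision of members near 10 CPM and of those with few y1w1118 reads, such as CR40469. The fit has only 2 y1w1118 libraries, and 5 higher and 3 lower members lost their call without replicate 1, and 6 and 4 without replicate 2.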
